A study of Rattus norvegicus with 8 samples.

Results

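Satellite glia are the cells that wrap the cell bodies of sensory neurons, and here they are represented by 320 of 36741 single nuclei from the rat nodose ganglion, the ganglion that holds the sensory cell bodies of the vagus nerve. A nucleus was selected when it held at least 1 transcript (unique molecular identifier, UMI) of at least 2 of the 4 genes Fabp7, Kcnj10, Slc1a3 and Gja1, no UMI of the myelin genes Prx and Mag, and at most 2 UMIs of the neuronal genes Scn10a and Slc17a6 together. The 320 selected nuclei made up 0.871% of the data (exact binomial 95% interval 0.778 to 0.971%, counting error only). The rule used measured transcripts, so the levels of those 8 genes, and the contrast of the selected nuclei with any other nuclei, are given as description without a test.

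The ganglia came from 18 male and 18 female Long Evans rats that were 8 weeks old and experimentally naive, and the rats differed by no treatment or genotype. Left and right ganglia were frozen apart, and the side taken first was balanced over the rats. Each of 12 pools combined the ganglia of 1 side from 6 rats of 1 labelled sex, with 3 pools for each of the 4 combinations, written ML1 to ML3 (male, left), MR1 to MR3 (male, right), FL1 to FL3 (female, left) and FR1 to FR3 (female, right). With 18 rats per sex, left and right pools drew on the same rats, so the p-values measure only the spread between these pools. The design asks whether the ganglion differs between sides and between sexes.

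In sensory ganglia these glia form a closed sheath around each neuronal soma and share the gene programme of the neural crest with Schwann cells. The inward-rectifier potassium channel encoded by Kcnj10 takes up potassium released by firing neurons, the transporter encoded by Slc1a3 clears glutamate, and Gja1 encodes a connexin of the gap junctions that couple neighbouring sheath cells. Fabp7 encodes a fatty acid-binding protein of immature and mature glia. Sox10 and Erbb3 maintain glial identity, Apoe carries lipid, and the receptor encoded by Ednrb responds to endothelin.

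The pools contributed between 10 selected nuclei (FL2) and 48 (FR2). ML1 to ML3 held 29, 15 and 18, MR1 to MR3 held 23, 46 and 22, FL1 to FL3 held 38, 10 and 14, and FR1 to FR3 held 18, 48 and 39. The share of a pool's nuclei ran from 0.575% in FL2 to 1.24% in FL1. All pools were spread over 8 sublibraries, in which the share was 0.877% ± 0.128 (SD) and ran from 0.608 to 0.967%. A chi-square test of the counts did not separate the sublibraries (chi-square 6.46 with 7 degrees of freedom, p = 0.487). The summed depth behind the selected nuclei was 52375 to 225709 UMIs per pool, so a gene at 100 CPM (UMIs per 1e+06 UMIs) rested on few UMIs in the smaller pools.

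Levels of Y-linked genes over all nuclei went against the sex label in 2 pools. ML1 had 2.88 CPM against 84.4 to 91.3 in ML2, ML3 and the MR pools. FL1 had 88.6 CPM against 2.73 to 3.95 in FL2, FL3 and the FR pools. The text therefore writes male-labelled and female-labelled, and the main results by sex are also given without both pools. Each barcode name includes its sublibrary, so no name could recur between sublibraries. Without that suffix, 1943 combinations of barcoding wells recurred between sublibraries.

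The upstream sequences of 3 genes are shown because Kcnj10 and Slc1a3 selected most of the nuclei and because Hey2, a target of Notch signalling, was among the genes that set the selected nuclei furthest apart from myelinating Schwann nuclei. Each line gives the 250 bases before the annotated transcription start, from RefSeq on the GRCr8 assembly, in the direction of the gene. Capitals mark matches to the SOX core motif ACAAAG and to the RBPJ core motif TGGGAA, on either strand (read as TTCCCA where the match lies on the other strand).
Kcnj10, chr13:87334260-87334509, plus strand: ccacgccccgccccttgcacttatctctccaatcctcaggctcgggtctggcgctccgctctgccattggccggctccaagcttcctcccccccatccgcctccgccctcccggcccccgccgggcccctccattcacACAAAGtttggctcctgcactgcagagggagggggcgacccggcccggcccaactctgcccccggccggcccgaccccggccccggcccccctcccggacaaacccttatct
Slc1a3, chr2:59557809-59558058, minus strand, the first of 3 listed starts: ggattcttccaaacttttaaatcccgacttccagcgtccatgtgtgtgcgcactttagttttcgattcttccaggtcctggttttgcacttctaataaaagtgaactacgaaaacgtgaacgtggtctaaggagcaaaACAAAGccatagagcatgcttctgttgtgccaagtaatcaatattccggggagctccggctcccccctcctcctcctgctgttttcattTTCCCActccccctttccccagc
Hey2, chr1:28640850-28641099, plus strand: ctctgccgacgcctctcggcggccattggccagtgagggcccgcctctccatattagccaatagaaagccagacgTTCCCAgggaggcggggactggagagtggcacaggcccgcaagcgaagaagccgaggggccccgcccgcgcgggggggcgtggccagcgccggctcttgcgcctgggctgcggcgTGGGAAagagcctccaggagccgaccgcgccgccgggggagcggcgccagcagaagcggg

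Kcnj10 and Slc1a3 each held ACAAAG on the gene strand between 112 and 107 bases before the start. Hey2 held the RBPJ core at 175 to 170 bases (other strand) and at 60 to 55 bases (gene strand), and Slc1a3 at 23 to 18 bases (other strand). Windows were scanned for 10 genes (also Gja1, Fabp7, Apoe, Jag1, Tyrp1, Ednrb and Fbln2), and all 10 symbols had an entry. Among them ACAAAG was in 2 (Kcnj10 and Slc1a3) against 16% of 27457 promoters of this length, and TGGGAA in 4 (Slc1a3, Apoe, Hey2 and Ednrb) against 21.6%. The nuclear receptor site TGACCT was in 2 (Fabp7 and Tyrp1) against 13.7%, while CACGTG (5.79% of promoters), TATAAA (13.1%) and TTCCNGGAA (1.04%) were in none. No motif overlapped another in the sequences shown, and the letters alone do not show that a factor binds.

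Kcnj10 carried most of the selection. It was detected in 297 of the 320 selected nuclei (92.8%), against 10.4% of neuron nuclei (nuclei with at least 3 UMIs of Scn10a and Slc17a6, n = 17637) and 26.1% of myelinating Schwann nuclei (Prx and Mag both detected and at most 2 of those neuronal UMIs, n = 276). Slc1a3 was detected in 201 (62.8%, against 4.16% and 14.5%), Gja1 in 131 (40.9%, against 1.98% and 2.17%) and Fabp7 in 38 (11.9%, against 0.675% and 0.725%). The median depth was 3702 UMIs in the selected nuclei, 4205 in neuron nuclei and 2435.5 in myelinating Schwann nuclei. The source of these UMIs in neuron nuclei was not tested.

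Most selected nuclei passed with exactly the minimum of 2 marker genes. There were 294 with 2, 25 with 3 and 1 with all 4. The pairs were Kcnj10 with Slc1a3 in 156, Kcnj10 with Gja1 in 94, Fabp7 with Kcnj10 in 22, Slc1a3 with Gja1 in 15, Fabp7 with Slc1a3 in 5 and Fabp7 with Gja1 in 2.

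The nuclei just outside the limits resembled those just inside in part. Another 1893 nuclei met the other limits with 1 marker, and their summed level of 10 glial lineage genes (among them Sox10, Erbb3, S100b, Cdh19, Sox2 and Apoe) was 2683 CPM, against 3350 CPM in nuclei with 2 markers and 734 CPM in nuclei with none. Detection of the markers moved with depth: the median was 1714 UMIs in nuclei with no marker, 2230 with 1, 3600.5 with 2 and 5938 with 3. On the neuronal limit, 94 selected nuclei held exactly 2 UMIs of Scn10a and Slc17a6 (glial lineage list 3387 CPM), and the 62 nuclei excluded with 3 UMIs had 2843 CPM. The limit on Prx and Mag alone excluded 130 nuclei. When each nucleus was thinned to 1000 UMIs before the rule was applied, 76 of 34754 nuclei passed, 53 of them among the 320, and 1987 shallower nuclei were left out.

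The label was borne out in part. Summed over the selected nuclei, the glial lineage list stood at 3443 CPM, close to the 3418 CPM of myelinating Schwann nuclei and above the 703 CPM of neuron nuclei. A list of satellite glia genes, which contains the rule genes Fabp7, Kcnj10, Slc1a3 and Gja1, stood at 1364 CPM. It was at 1428 CPM in myelinating Schwann nuclei and 232 CPM in neuron nuclei. Of its 11 measured genes, 11 were higher than in neuron nuclei and 7 higher than in myelinating Schwann nuclei. Both counts include rule genes, whose detection selected the nuclei, so they are no separate evidence for the label. Even with rule genes in it, the summed list did not set the selected nuclei above myelinating Schwann nuclei. Apoe was detected in 301 of the 320 and Sox10 in 120. In 265 nuclei the glial lineage level was above the 90th percentile of neuron nuclei.

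Neuronal RNA was abundant in the same nuclei. A list of 21 neuronal genes stood at 11339 CPM in the selected nuclei, 15187 in neuron nuclei, 10536 in the 18508 remaining nuclei and 5307 in myelinating Schwann nuclei. Snap25, a synaptic fusion protein, was detected in 280 of the 320, and 193 nuclei had a neuronal level above the 10th percentile of neuron nuclei. Only 3 held 2 or fewer UMIs of the neuronal list. Each selected nucleus is therefore described by the rule and not taken as a pure glial nucleus, and the part that neuronal RNA plays in the values below was not tested.

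**Figure D1:**
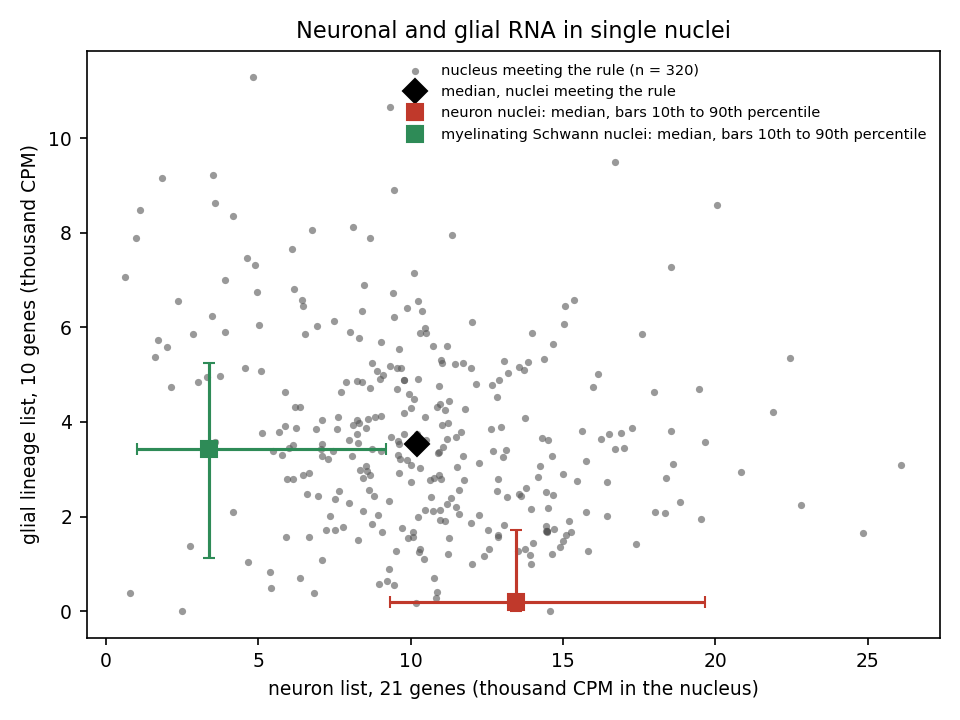
Summed level of 10 glial lineage genes (vertical, CPM in units of 1000) against that of 21 neuronal genes (horizontal, same unit) in each of the 320 selected nuclei (grey points), with their median (diamond) and the medians and 10th to 90th percentiles of neuron and myelinating Schwann nuclei (squares with bars). The selected nuclei share the glial level of myelinating Schwann nuclei (median 3525 against 3437 CPM) while their neuronal level (median 10223 CPM) lies nearer that of neuron nuclei (13446 CPM).

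Apoe, Tyrp1 and Fbln2 were among the genes with the highest ratio to neuron nuclei. Levels are means ± SD over the 12 pools, in CPM of the summed UMIs, with the SD given mostly for the selected nuclei alone. The myelinating Schwann means rest on 8 (FL3) to 63 (FR2) nuclei per pool. Their SD could near or exceed the mean, at 89.3 CPM for Tyrp1, 87.5 for Fbln2 and 15.1 for Hey2. For Apoe it was 187 CPM. Apoe was at 1602 ± 375 CPM, against 251 in neuron nuclei and 394 in myelinating Schwann nuclei, and was higher than both in 12 of 12 pools. Tyrp1, known as a melanosome enzyme of pigment cells, was at 493 ± 115 CPM against 79.2 and 81.0, and the matrix glycoprotein gene Fbln2 at 460 ± 111 CPM against 69.2 and 100. Both were also higher in all 12 pools. Fbln2 does not stand for its list: of 71 matrix and adhesion genes in the file, 48 were higher than in neuron nuclei and 37 higher than in myelinating Schwann nuclei (median log2 ratios 0.64 and 0.15, 5 CPM added). Sparc, a matrix glycoprotein gene, was at 1011 ± 218 CPM against 190 in neuron nuclei and 1650 in myelinating Schwann nuclei, below the latter in 12 of 12 pools.

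Ion transport genes included some that were higher than in both other classes. The sodium bicarbonate cotransporter gene Slc4a4 was at 1099 ± 165 CPM, against 276 in neuron nuclei and 212 in myelinating Schwann nuclei. Ttyh1, a membrane protein of glia, was at 414 ± 85.8 CPM against 78.3 and 297 (higher than myelinating Schwann nuclei in 9 of 12 pools), and the calcium-activated potassium channel gene Kcnn3 at 207 ± 72.9 CPM against 50.2 and 58.4. The water channel gene Aqp4 and the amino acid exchanger gene Slc7a10 had no UMI in the selected nuclei. Of 38 potassium and ion transport genes in the file, 29 were higher than in neuron nuclei and 24 higher than in myelinating Schwann nuclei, with median log2 ratios of 0.33 and 0.46 (5 CPM added). The medians over the 4617 and 4824 genes that reached 50 CPM in either class compared were 0.076 and 0.025. The list medians also cover genes below 50 CPM, so the sets of genes were not filtered alike. Of 24 transmitter uptake and metabolism genes, 18 were higher than in neuron nuclei and 10 higher than in myelinating Schwann nuclei (medians 0.26 and -0.035).

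The 4 rule genes themselves kept this order of description. Kcnj10 was at 286 ± 58.2 CPM, against 32.9 in neuron nuclei and 101 in myelinating Schwann nuclei. Slc1a3 was at 143 ± 33.9 CPM, against 9.24 and 51.4, and Gja1 at 96.0 ± 44.0 CPM, against 3.96 and 9.69. The rule required their detection, so these levels say nothing further about the nuclei. Among other connexin genes, Gjc3, a connexin of myelinating glia, was at 24.7 ± 12.8 CPM against 242 in myelinating Schwann nuclei, and Gjb2 and Gjb6 had no UMI.

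Jag1, Notch1 and Hey2 of the Notch pathway, which the rule did not use, were higher in the selected nuclei than in either other class. The ligand gene Jag1 was at 237 ± 75.8 CPM, against 38.2 in neuron nuclei and 51.6 in myelinating Schwann nuclei. The receptor gene Notch1 was at 194 ± 72.9 CPM against 38.8 and 104, and the target gene Hey2 at 105 ± 43.4 CPM against 18.2 and 13.2. Notch2 went the other way between the glial classes, at 129 ± 26.6 CPM against 254 in myelinating Schwann nuclei. Of 40 glial transcription factor and Notch genes, 35 were higher than in neuron nuclei and 17 higher than in myelinating Schwann nuclei. Sox5, Sox6 and Nfia, transcription factors of the glial lineage, stood at 333, 377 and 715 CPM, against 99.7, 88.0 and 223 in neuron nuclei and 374, 874 and 1124 in myelinating Schwann nuclei.

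Most lipid genes were higher in the selected nuclei. Of 39 lipid and cholesterol genes in the file, 35 were higher than in neuron nuclei and 32 higher than in myelinating Schwann nuclei, with median log2 ratios of 0.53 and 0.82. The medians over all genes that reached 50 CPM were 0.076 and 0.025. The share of all genes that were higher was not counted, for this or any other list. The fatty acid elongase gene Elovl6 was at 804 ± 107 CPM against 273 and 343, and the desaturase gene Scd at 365 ± 90.7 CPM against 94.4 and 67.3. Hmgcs1, a synthase early in cholesterol synthesis, was at 615 ± 130 CPM against 399 and 417. Genes are counted here without a test, since a nucleus class chosen in the same data must differ somewhere.

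Of 47 transmitter receptor genes, 23 were higher than in neuron nuclei and 39 higher than in myelinating Schwann nuclei, with median log2 ratios of -0.0032 and 0.71. Single receptor and membrane genes varied in their order. The endothelin receptor gene Ednrb was at 129 ± 15.5 CPM against 19.6 and 79.2, and the ephrin receptor gene Ephb1 at 408 ± 103 CPM against 72.4 and 141. The kainate receptor gene Grik2 (1789 ± 333 CPM against 513 in neuron nuclei) and the dystrophin gene Dmd (2566 ± 530 CPM against 641) were higher than in neuron nuclei in 12 of 12 pools. Both were higher still in myelinating Schwann nuclei, at 2831 and 3944 CPM.

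Myelin genes separated the selected nuclei from myelinating Schwann nuclei, partly through the rule. Mbp, which encodes a basic protein of compact myelin, was at 177 ± 75.3 CPM against 2237 in myelinating Schwann nuclei and 95.1 in neuron nuclei. Pmp22, another myelin protein gene, was at 537 ± 130 CPM against 3900 and 327. Cldn19 had no UMI, nor had Prx and Mag, which the rule excludes. The lineage genes Cdh19 and Erbb3 were at 456 and 231 CPM, below myelinating Schwann nuclei (905 and 399 CPM) in all 12 pools and above neuron nuclei (102 and 42.6 CPM) in all 12.

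Neuronal genes did not follow the neuron nuclei in a fixed ratio. The neuron nuclei had at least 3 UMIs of Scn10a and Slc17a6 and the selected nuclei at most 2. The part of that split in these ratios was not tested. Nefh and Nefm, neurofilament subunits of large axons, were higher in the selected nuclei: Nefh at 1049 ± 427 CPM against 481 ± 46.0 in neuron nuclei (higher in 12 of 12 pools) and Nefm at 2839 ± 819 against 1921 ± 200 (11 of 12). Other neuronal genes were lower, with Snap25 at 1274 ± 207 CPM against 1684 (higher in 1 of 12 pools), the sodium channel gene Scn9a at 847 ± 197 against 2031 (0 of 12) and the vesicle protein gene Syt1 at 547 ± 160 against 1114 (0 of 12). Scn10a, limited by the rule, was at 121 ± 40.9 CPM against 1400. Kcnq3, a potassium channel gene of neurons, was at 262 ± 84.7 CPM against 1052, and Kcnip4, a potassium channel-interacting protein gene, at 1537 ± 596 against 6835. Of 4617 genes that reached 50 CPM in either class, 509 were at least 2-fold higher and 304 at least 2-fold lower than in neuron nuclei. Of 4824 such genes against myelinating Schwann nuclei, 557 were higher and 381 lower by that measure.

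**Figure D2:**
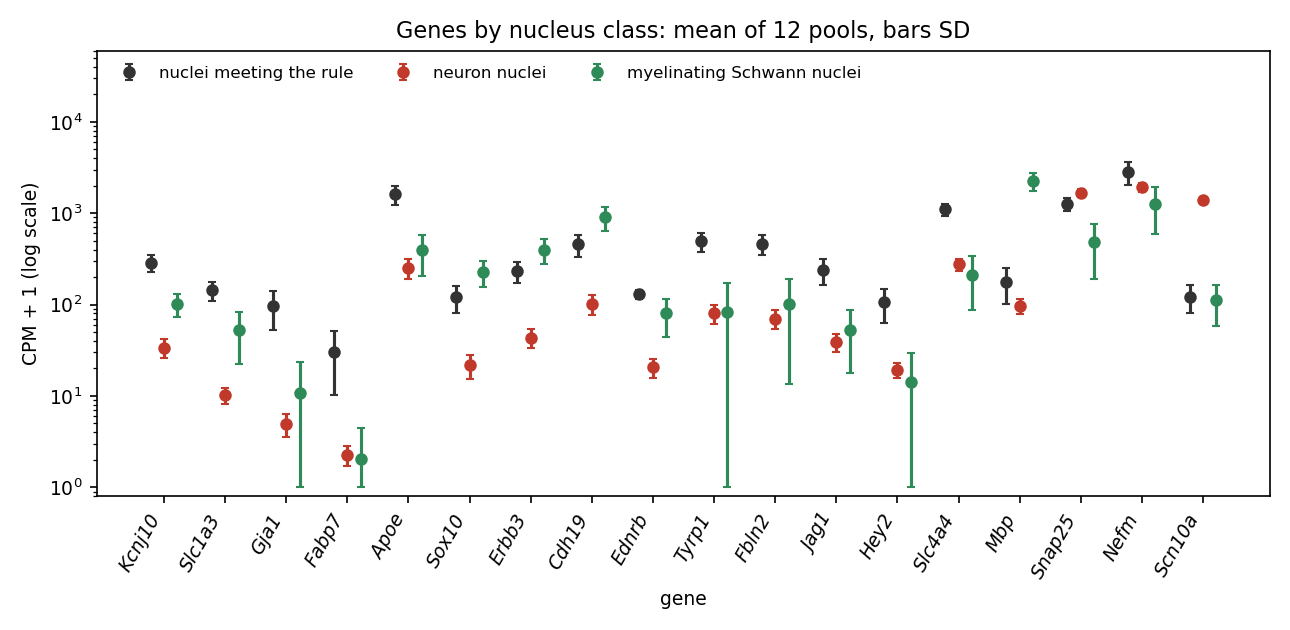
Levels of 18 genes (CPM + 1, log axis) in the selected nuclei, neuron nuclei and myelinating Schwann nuclei, as means of 12 pools with SD bars. Apoe, Tyrp1, Fbln2, Jag1, Hey2 and Slc4a4 lie above both other classes, Mbp lies far below myelinating Schwann nuclei, and Snap25 and Nefm lie near neuron nuclei.

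Markers of other cells of the ganglion were present at varied levels. The fibroblast list (10 genes, all detected) summed to 801 CPM, against 290 in neuron nuclei and 2669 in myelinating Schwann nuclei, with 524 to 1298 CPM over the pools. The perineurial list was at 734 CPM against 182 and 1276, of which the integrin gene Itgb4 alone gave 618 CPM, while Lypd2 and Moxd1 had no UMI. The non-myelinating Schwann list was at 12075 CPM against 10605 and 14671, and the myelinating Schwann list at 1169 CPM against 635 and 14880.

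Vascular, immune and muscle genes were also detected. The endothelial list was at 123 CPM (18.4 to 405 over the pools), the mural list at 166 CPM (57.3 to 262, with Kcnj8 at 0) and the macrophage list at 55.8 CPM (0 to 96.7, with C1qb and Aif1 at 0). Of 7 T or NK cell genes, 6 were at 0, and Skap1 gave the whole 17.7 CPM. The skeletal muscle list was at 368 CPM and ranged from 95.5 CPM in FL2 to 1651 CPM in FR2.

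Clustering the 320 nuclei on genes other than the 8 rule genes, the Y-linked genes and the mitochondrial genes gave 4 subclusters of 146, 75, 50 and 49 nuclei, which are left unnamed. Subcluster 1 had the highest glial lineage level (4804 CPM), the lowest neuronal level (9134 CPM) and a median of 2611 UMIs. Its leading genes were Nrp1, Zfp36l1 and Col18a1. Subcluster 2 held deeper nuclei (median 6623 UMIs) with 2537 CPM of the glial and 13090 CPM of the neuronal list, and was led by Zmat4, Nxph1 and Grm8. Subcluster 3 had 3941 and 10981 CPM at a median of 5458 UMIs and was led by Ddrgk1 and by Igfbp5, an insulin-like growth factor-binding protein gene. Subcluster 4 had 2273 and 11409 CPM at 2902 UMIs, and its leading genes included Chrna3 and Cckar, receptor genes of vagal neurons. A finer clustering (resolution 1.0) gave 9 subclusters. Its subcluster 8 (16 nuclei, led by Rasgrp3 and Cav1) had 1144 CPM of the endothelial list, against 123 over all selected nuclei. Its subcluster 9 (11 nuclei, led by Tll1 and Acta2) had 5151 CPM of the myelinating Schwann list, against 1169 over all. The rule thus admitted small groups with markers of other cells. Cells were split by the same genes that describe the subclusters, so these values carry no test.

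Subcluster 3 took a larger share of the selected nuclei on the right. It held 9.61% ± 5.82 of the selected nuclei of the left pools and 20.01% ± 5.26 of those of the right pools (SD, n = 6 each, adjusted p = 0.02 over 4 subclusters, exact permutation test, two-sided, where 400 relabellings within sex allow no unadjusted p below 0.005). By pool it held 4, 1 and 3 nuclei in ML1 to ML3, 4, 1 and 0 in FL1 to FL3, 4, 10 and 5 in MR1 to MR3 and 5, 6 and 7 in FR1 to FR3, so the pools overlapped in share (FR2 12.5%, ML3 16.7%). The adjusted p was between 0.05 and 0.08 when any of MR1, MR2, MR3, FL1, FL2 or FL3, or ML1 and FL1 together, were left out, and 0 of 2 coarser and 0 of 9 finer subclusters passed. Subcluster 2 held 35.4% ± 14.5 on the left and 18.4% ± 8.73 on the right, which did not pass (adjusted p = 0.06, exact permutation test). Subclusters 2 and 3 held the deeper nuclei. The mean over pools of the selected nuclei's median depth was 4453 UMIs on the left and 3411 on the right. This did not pass after adjustment (p = 0.045, adjusted p = 0.315 over 21 measures, exact permutation test). The part of depth in the shares was not tested.

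The share of all nuclei that met the rule was not shown to differ by side. It was 0.802% ± 0.245 in the left pools and 0.877% ± 0.118 in the right pools (SD, n = 6 each), a difference of 0.075 percentage points (p = 0.54, adjusted p = 0.97 over 6 measures, exact permutation test, two-sided). Of the left pools FL1 was highest (1.24%) and FL2 lowest (0.575%), which brackets all 6 right pools (0.763 to 1.05%). The median depth of all nuclei averaged 3028 UMIs over left and 2583 over right pools (p = 0.05, adjusted p = 0.315 over 21 measures, exact permutation test). After thinning to 1000 UMIs the share was 0.132% ± 0.080 on the left and 0.271% ± 0.131 on the right (p = 0.055, adjusted p = 0.33, exact permutation test). Per myelinating Schwann nucleus there were 1.38 ± 0.588 selected nuclei on the left and 1.32 ± 0.4929 on the right, a log2 difference of -0.014 (p = 0.97, exact permutation test).

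The share by labelled sex was as close. It was 0.825% ± 0.119 over the 6 male-labelled and 0.854% ± 0.251 over the 6 female-labelled ones (SD, p = 0.82, exact permutation test). With ML1 and FL1 left out the sign turned, to -0.044 percentage points (p = 0.633, exact permutation test). The side difference in the share did not differ detectably between labelled sexes (p = 0.975, exact permutation test).

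**Figure D3:**
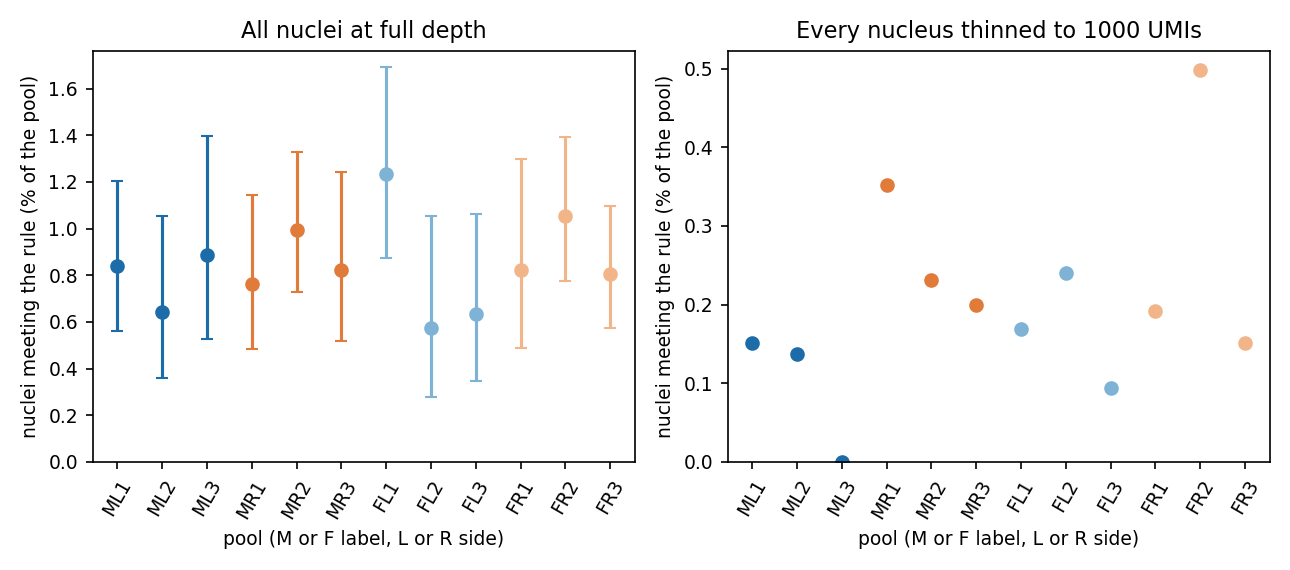
Nuclei meeting the rule as a percentage of each pool's nuclei, at full depth with exact binomial 95% intervals (left panel) and after thinning every nucleus to 1000 UMIs (right panel), coloured by labelled sex and side. At full depth FL1 is highest at 1.24% and FL2 lowest at 0.575%, and after thinning FR2 is highest at 0.498% and ML3 is at 0.

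No gene passed the threshold between right and left. UMIs of the selected nuclei were summed per pool and tested with edgeR over 3072 genes, and 0 genes (0%) had a Benjamini-Hochberg adjusted p below 0.05. At an unadjusted p below 0.05 there were 124 genes (4.04%). These counts include the rule genes Gja1 and Scn10a, whose levels the selection shaped. DESeq2 and limma-voom also called 0, with 78 and 159 genes at an unadjusted p below 0.05. Without the filter on low counts 4 genes were called, Chrna7, Ttn, Myh4 and ENSRNOG00000068039. In 7 genes (0.228%) the 6 left and 6 right pools did not overlap.

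The smallest p belonged to Eri3, which encodes an exoribonuclease. It was at 156, 81.2 and 125 CPM in ML1 to ML3, 110, 173 and 156 in FL1 to FL3, 298, 246 and 211 in MR1 to MR3 and 216, 214 and 265 in FR1 to FR3 (CPM here and below are scaled by the TMM method). All right pools were above all left pools, which makes Eri3 1 of the 7 genes among 3072 (0.228%) whose pools did not overlap. The log2 ratio of right to left was 0.88 (SE 0.20), and its adjusted p in edgeR was 0.275. In neuron nuclei of the same pools the log2 ratio was -0.02, with 160 ± 7.27 CPM (left) and 158 ± 9.33 (right).

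Extl3 and Plcb4 were the other named genes whose pools did not overlap by side. Extl3, a glycosyltransferase of heparan sulfate synthesis, was at 38.4 to 94.8 CPM in the left pools and 101 to 167 in the right pools (log2 ratio 0.76, SE 0.23, edgeR adjusted p = 0.781). Plcb4, a phospholipase of receptor signalling, was at 402 ± 57.96 CPM (left) and 546 ± 62.8 (right), a log2 ratio of 0.41. It was chosen for its function list.

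Genes with lower values on the right included Chrna7, Slc35f3, Zfp804a and Scp2. Chrna7, a nicotinic acetylcholine receptor subunit gene, was at 139, 94.8 and 31.1 CPM in ML1 to ML3, 132, 96.0 and 100 in FL1 to FL3, 59.6, 25.6 and 23.4 in MR1 to MR3 and 56.5, 11.9 and 50.7 in FR1 to FR3. It rested on 107 UMIs, and ML3 alone among the left pools fell in the range of the right pools. The log2 ratio was -1.55 (SE 0.38, edgeR adjusted p = 0.403), and in neuron nuclei it was -0.05. Slc35f3, a solute carrier gene, was at 95.7 ± 35.6 CPM (left) and 42.9 ± 8.15 (right) (log2 ratio -1.20, adjusted p = 0.593). Zfp804a, a zinc finger gene, was at 280 ± 43.9 and 168 ± 54.8 CPM, and Scp2, a sterol carrier protein gene, at 145 ± 27.4 and 84.4 ± 13.2.

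Ttn, the sarcomere gene, had a log2 ratio of 2.23 (SE 0.62, edgeR adjusted p = 0.635) that rested mostly on FR2 and was 0.78 without it. FR2 was at 1048 CPM and MR1 at 405 CPM, while the other 10 pools lay between 19.2 and 114 CPM. The muscle list as a whole was highest in the same pools, at 1651 CPM in FR2 and 689 in MR1 against 95.5 to 214 in the others. Neuron nuclei also had a positive ratio for Ttn (1.03).

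Gja1, a rule gene, was at 67.9 ± 33.3 CPM (left) and 124 ± 34.3 (right), with 22.3 to 115 and 78.9 to 179 CPM over the pools. Its share of selected nuclei was 36.5% ± 15.7 on the left and 46.2% ± 8.596 on the right. Since it was used to select the nuclei, it is given without a test.

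**Figure D4:**
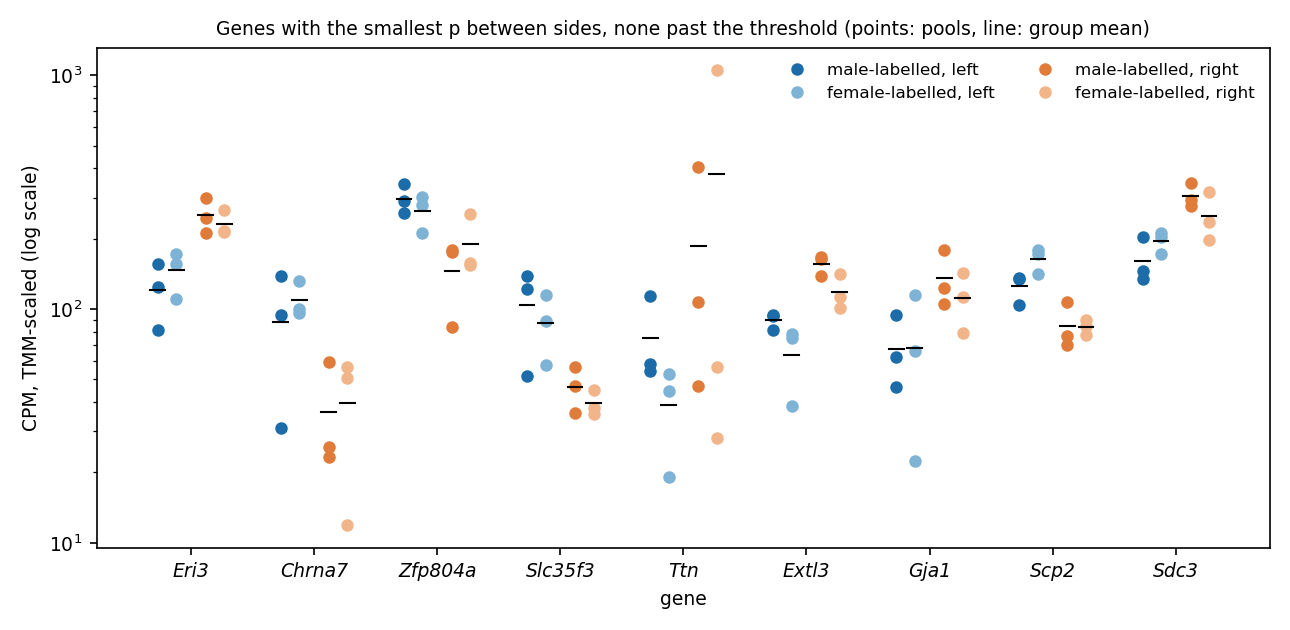
Genes named for the smallest p between sides (log axis, TMM-scaled CPM), with each of the 12 pools as a point and the mean of each labelled sex and side as a line. The rule gene Gja1 is shown with them as description only. Eri3 and Extl3 are among the 7 of 3072 genes (0.228%) whose left and right pools do not overlap. Ttn is led by FR2 at 1048 CPM, and none of the genes shown passed the threshold.

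Among the function lists, axon guidance had the most genes at an unadjusted p below 0.05. Of its 25 tested genes 5 were lower on the right at that level (Epha5, Sema3c, Epha6, Robo2 and Robo1) and none higher, beside 71 lower and 53 higher among all 3072 genes (4.04% in all). In the list 7 of 25 had a positive log2 ratio, and the median was -0.12 against -0.0036 over all genes tested. None passed after adjustment. Epha6 was at 229 ± 48.5 CPM (left) and 153 ± 60.1 (right). Of 24 potassium and ion transport genes 1 was lower at that level, of 25 lipid genes 1 was higher (Msmo1), and of 16 glial transcription factor and Notch genes none was on either side. Kcnq3 had a log2 ratio of 0.34 (SE 0.20, edgeR adjusted p = 1.00), which was 0.14 without MR2 and 0.52 without FL1. Gna14 had 12 UMIs and was not tested.

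Cell-type lists within the selected nuclei were set beside side as well. The mural list averaged 112 CPM in left and 196 in right pools (p = 0.015, adjusted p = 0.315 over 21 measures, exact permutation test). The glial lineage list averaged 3114 and 3647 CPM (p = 0.135, adjusted p = 0.435, exact permutation test). The neuronal list averaged 11874 and 11275 CPM (p = 0.575, adjusted p = 0.863, exact permutation test). None passed. The part of these levels in the gene ratios was not tested.

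The side difference was compared with that in other classes of the same pools. In a fit with both classes from each pool, 0 of 3072 genes (0%) had a side difference that differed between selected and neuron nuclei at an adjusted p below 0.05 in edgeR, and 139 (4.52%) did at an unadjusted p. Eri3 (log2 difference of ratios 0.89, adjusted p = 0.135), Slc35f3 (-1.27, 0.135), Chrna7 (-1.52, 0.144) and Ttn (1.21, 0.144) were nearest. With ML3 left out Chrna7, Slc35f3 and Ttn passed (smallest adjusted p 0.0466). Against myelinating Schwann nuclei 0 of 1407 genes (0%) passed, and 55 (3.91%) had an unadjusted p below 0.05.

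No gene passed between labelled sexes either. In the same edgeR fit 0 of 3072 genes (0%) were called, 134 (4.36%) had an unadjusted p below 0.05, and 4 (0.13%) had pools that did not overlap. DESeq2 and limma-voom called 0, with 71 and 160 genes at an unadjusted p below 0.05. The adjusted p was 0.988 for each of the 10 genes with the smallest p.

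Ubr4, a ubiquitin ligase gene, was the named gene whose pools did not overlap by labelled sex. It was at 464, 488 and 467 CPM in ML1 to ML3, 513, 579 and 468 in MR1 to MR3, 318, 326 and 368 in FL1 to FL3 and 405, 328 and 310 in FR1 to FR3. This holds for the labels only. Grouped by the level of Y-linked genes, which was low in ML1 and high in FL1, the pools overlapped (FL1 318 CPM, FR1 405 CPM). The log2 ratio of female-labelled to male-labelled was -0.55 (SE 0.15), and it was -0.55 (SE 0.17) without ML1 and FL1. In neuron nuclei the ratio was -0.15.

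Of the 10 genes with the smallest p, 4 have the symbols of mitochondrial protein genes, and another is a feature without a gene symbol that is named by the mitochondrial genome's own record (log2 ratio 0.46, and 0.45 without ML1 and FL1). Mt-nd2, a subunit of respiratory complex I, was at 93.2 ± 18.2 CPM (male-labelled) against 168 ± 60.2 (female-labelled) (log2 ratio 0.93, SE 0.25, and 0.75 without ML1 and FL1). Mt-co3 and Mt-co2, subunits of cytochrome oxidase, had log2 ratios of 0.59 and 0.83 (0.51 and 0.66 without ML1 and FL1), and Mt-cyb of 0.59 (0.41). Of 11 tested mitochondrial genes with such symbols, 10 had positive ratios and 6 an unadjusted p below 0.05, beside 1489 and 134 (4.36%) of all 3072 genes. Their median was 0.45 against -0.0090 over all genes. Without ML1 and FL1, 9 were positive, 4 had an unadjusted p below 0.05 and the median was 0.21.

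The summed share of 13 mitochondrial genes gave the same order without passing a test. In the selected nuclei it was 0.276% ± 0.064 for the 6 male-labelled pools and 0.355% ± 0.059 for the 6 female-labelled ones (SD, p = 0.075, adjusted p = 0.63 over 21 measures, exact permutation test). In neuron nuclei it was 0.182% ± 0.051 and 0.249% ± 0.067 (p = 0.1, exact permutation test; p = 0.117 without ML1 and FL1), and in myelinating Schwann nuclei 0.223% and 0.248% (p = 0.47, exact permutation test). Without ML1 and FL1 the selected nuclei had 0.289% and 0.337% (p = 0.233, exact permutation test). The median depth of all nuclei averaged 2489 UMIs over male-labelled and 3122 over female-labelled pools. This did not pass after adjustment (p = 0.015, adjusted p = 0.315 over 21 measures, exact permutation test).

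**Figure D5:**
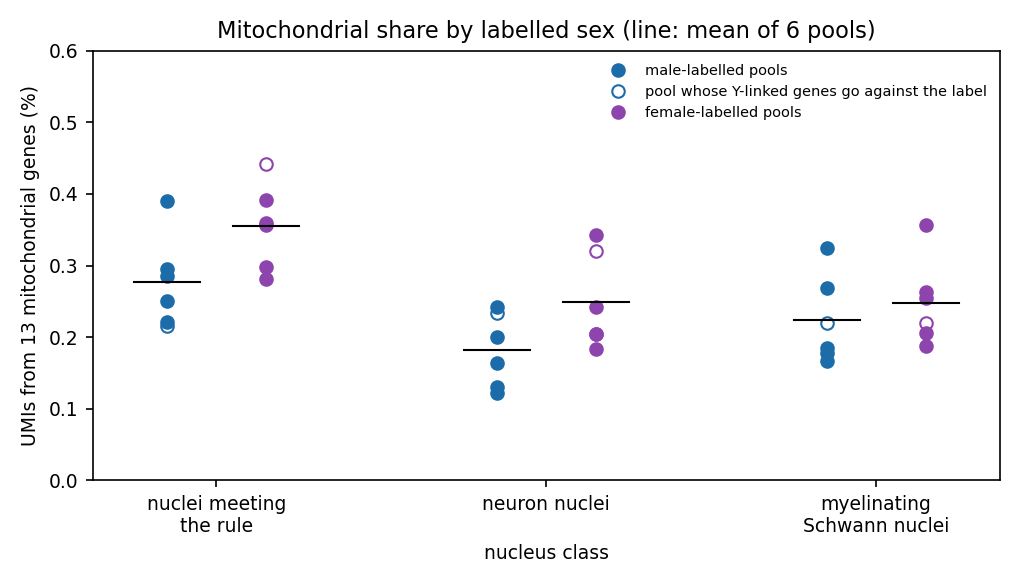
Share of UMIs from 13 mitochondrial genes (percent) in the selected nuclei, neuron nuclei and myelinating Schwann nuclei of each pool, by labelled sex, with ML1 and FL1 marked as the pools whose Y-linked genes went against the label. The female-labelled mean is higher in the selected nuclei (0.355% against 0.276%) and in neuron nuclei (0.249% against 0.182%), and the pools overlap.

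Hey2, the Notch target, was at 80.4 ± 28.5 CPM (male-labelled) against 130 ± 43.6 (female-labelled). By pool it was at 63.8, 108 and 83.0 CPM in ML1 to ML3, 119, 61.5 and 46.8 in MR1 to MR3, 155, 115 and 66.9 in FL1 to FL3 and 188, 101 and 152 in FR1 to FR3, so the groups overlapped. The log2 ratio was 0.82 (SE 0.26), and 0.67 without ML1 and FL1, against -0.27 in neuron nuclei. Kcnip4 and Unc13c, the latter a synaptic vesicle priming gene, had lower means in female-labelled pools, with log2 ratios of -0.65 and -0.73 (-0.83 and -0.52 without ML1 and FL1). Kcnip4 is among the genes that are far higher in neuron nuclei, where its ratio was -0.16.

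With ML1 and FL1 left out, 2 genes passed in edgeR. Nwd2 had a log2 ratio of -0.96 (SE 0.19, adjusted p = 0.0305), and ENSRNOG00000060617, which has no symbol in the file, had -4.54 (SE 0.73, adjusted p = 0.00256). With all pools their ratios were -0.41 and -1.38. ENSRNOG00000060617 had UMIs in every male-labelled pool but ML1 (58.5 to 144 CPM) and in FL1 (110 CPM), while FL2, FL3 and the FR pools lay between 0 and 11.1 CPM. These are the pools in which the Y-linked genes were high.

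The interaction of labelled sex and side gave 0 of 3072 genes (0%) in edgeR, with 135 (4.39%) at an unadjusted p below 0.05, and 0 in DESeq2 and limma-voom (41 and 169 at an unadjusted p below 0.05). Without ML1 and FL1 it gave 0 of 3152 genes in edgeR, with 124 at an unadjusted p below 0.05. Kctd8, an auxiliary subunit gene of GABA receptors, was among the genes with the smallest p (log2 interaction 1.42, SE 0.43). It had a mean of 330 CPM in the male-labelled left and 146 in the male-labelled right pools, against 157 and 212 in the female-labelled left and right pools. Its adjusted p was 1.00, and the left means include ML1 and FL1, whose Y-linked genes went against the label.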

How the data were processed

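Nuclei of 12 pools were barcoded with the Evercode version 2 kit, split into 8 sublibraries and sequenced on a NextSeq 2000, per the labels' protocols. The authors deposited a matrix of UMI counts per gene and nucleus, which holds 30560 genes and 139965360 UMIs (median 2680 per nucleus, lowest 779). The genome build is mRatBN7.2 and the tools are R 4.3.2 and Seurat 4.1.3, per the submitters' processing notes. Details of the aligner, the annotation and any filter on nuclei were not given in the sources used here. All 12 pools were used.

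Counts of the selected nuclei were summed per pool and tested with edgeR 4.0.16 (quasi-likelihood, TMM, filterByExpr, Benjamini-Hochberg adjustment, terms for sex and side) in R 4.3.3, with DESeq2 1.42.0 and limma 3.58.1 as alternatives. Pool values were tested by exact permutation over 400 relabellings. Subclusters used scanpy 1.11.5 and leidenalg 0.10.2 (1500 genes, 15 components, 15 neighbours, resolution 0.5). Ratios between classes had 5 CPM added. No doublet caller was run, and leaving out the deepest 5% of nuclei was an alternative. Intervals are exact Clopper-Pearson and cover counting error only. The fits were tested on simulated data. Replicate numbers are not stated to pair pools of the same rats, so the main tests were unpaired.

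Named genes are the 10 with the smallest p per contrast, the 2 highest and 2 smallest p of each function list, the 20 most different each way between classes (at least 50 CPM), and all cell-type markers. Nwd2 and ENSRNOG00000060617 were named after their values were seen. The members and lists were chosen with earlier results of these data known. Some named items are not reported here.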

Additional observations from a re-analysis of the deposited data

Results flagged for a closer look

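In 6 of 59 groups of pools tested, 1 pool stood apart from the others of its group by Dixon's criterion, which chance alone meets in about 1 in 20 groups. Among the right pools, FR2 had 1651 CPM of the skeletal muscle list in the selected nuclei where the other 5 had 148 to 689, and 1048 CPM of Ttn where the others had 28.2 to 405. MR3 had 405 CPM of the endothelial list where the other right pools had 18.4 to 162. Among the left pools, FL2, the pool with the fewest selected nuclei, had 38.4 CPM of Extl3 where the others had 75.1 to 94.8. Among the female-labelled pools FL2 had 346 CPM of Unc13c where the others had 84.5 to 124. Among the male-labelled pools MR1 had 811 CPM of Mt-cyb where the others had 411 to 561.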

How the results depend on the processing

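By side, 22 of 23 alternatives gave 0 called genes, and 4 were called without the low-count filter (Chrna7, Myh4, Ttn and ENSRNOG00000068039). Requiring 3 of 4 markers left 26 nuclei and 270 tested genes. Keeping nuclei with a neuronal level below the median left 922 tested genes, against 3072 in the main fit. Calls of 0 in those 2 alternatives carry little weight. By labelled sex 1 gene was called without the filter and 2 without ML1 and FL1, and leaving out 1 pool gave 0 to 2 (2 without FL1, Nwd2 and ENSRNOG00000060617). For the interaction 3 were called without the filter and 2 without FL2 and FL3, an alternative added after seeing the data, as were those that leave pools out for subcluster 3. Against neuron nuclei, leaving out 1 pool gave 0 to 3 genes (3 without ML3). The share difference by side turned to -0.034 percentage points with 3 of 4 markers required, -0.127 over non-neuron nuclei and -0.024 without FL2 and FL3, and leaving out 1 pool gave 0.0295 to 0.161. By labelled sex it was -0.044 without ML1 and FL1, and -0.047 to 0.0854 with 1 pool left out. The log2 ratio to myelinating Schwann nuclei ran from -0.216 to 0.136 with 1 pool left out. The Kcnip4 ratio by labelled sex turned to 0.075 with 3 of 4 markers required, on the same 26 nuclei. At resolutions of 0.3 and 1.0, 0 subclusters passed, and the subcluster 3 difference was 8.48 to 11.9 percentage points with 1 pool left out. With a replicate block 0 genes were called by side (122 at an unadjusted p below 0.05) and 0 by labelled sex (165). Same-numbered pools correlated between -0.081 and 0.112, and differently numbered ones between -0.194 and 0.202. With so few nuclei per pool these values cannot decide whether the numbers are pairs. They were not taken as pairs because no pairing is stated. Gene fits on nuclei with 2 or fewer neuronal UMIs (3 nuclei) and the thinned ratio were not run. Depth limits all gene results: FL2 rests on 10 nuclei and 52375 UMIs.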
